A study of Homo sapiens with 20 samples.

Results

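The GADD45 family and the genes it works with were followed through the RNA-seq of 4 lung cancer cell lines after CRISPR-Cas9 knockout (KO) of *ADAR*. The 5 genes were chosen by symbol among the 58233 Ensembl gene identifiers counted in every library, and all 5 had a row there. They are the 3 paralogs *GADD45A* (ENSG00000116717), *GADD45B* (ENSG00000099860) and *GADD45G* (ENSG00000130222), and the interactors *GADD45GIP1* (ENSG00000179271) and *MAP3K4* (ENSG00000085511). HCC366 (labelled lung adenosquamous carcinoma), NCI-H1650 and NCI-H196 (labelled variant small cell lung cancer) are ADAR1-dependent lines. They were left untreated, and their RNA was taken 5 days after transduction with lentivirus carrying Cas9 and an sgRNA against *GFP*, the control, or *ADAR*. A549 (labelled lung adenocarcinoma) served as the line that normally survives without ADAR1. Its cells with *GFP* or *ADAR* sgRNAs, kept in the same medium, received vehicle (sterile water) or 10 ng/mL interferon-β (IFN-β) for 24 h. All cells therefore carried Cas9 and an sgRNA, controls included. Each of the 10 conditions had 2 libraries, 1 for each of 2 sgRNAs (sg1 and sg2). The experiment was not repeated in these libraries, so errors and p-values below reflect how the sgRNAs of a target varied. In the fit across the 3 ADAR1-dependent lines they also hold differences of the *ADAR* KO effect between lines.

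GADD45 proteins are small, stress-induced proteins without enzyme activity that act by binding others. Each paralog can bind the kinase MAP3K4 and open its autoinhibited form, which feeds the p38 and JNK kinase cascades. They also bind PCNA, the cyclin B1-CDK1 kinase and the p21 inhibitor, and recruit DNA repair and demethylation enzymes such as TDG. GADD45GIP1 (also known as CRIF1) was found as a GADD45-binding protein and is also a subunit of the large mitochondrial ribosome, at the exit tunnel for new proteins. *GADD45A* and *GADD45B* are among the genes that the study chose to plot on these same libraries, so their rise after *ADAR* KO is not independent evidence of a direction.

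Reads on genes numbered between 62679 and 19520189 per library (median 6411279), and they set the precision of the values below. NCI-H196 GFP sg2 was the shallowest library and held 5 reads of *GADD45A*, 7 of *GADD45B*, 2 of *MAP3K4* and none of *GADD45G* or *GADD45GIP1*. In HCC366 ADAR sg2, 85.6% of alignments were not unique, against 22.5% to 59.1% elsewhere, and a fit on GC content and exon length took up 50.1% of the gene-to-gene variance in its log2 ratio to the HCC366 mean. In all 5 KO comparisons, every *ADAR* library held less *ADAR* mRNA than every *GFP* library. By edgeR's quasi-likelihood test the fall did not pass in HCC366 (log2 fold change −0.84, adjusted p = 0.208). It passed in each of the other KO comparisons. The groups came closest in NCI-H196, at 564 and 482 CPM against 664 and 865 CPM (CPM, reads scaled to a common library total by TMM within the line). mRNA level does not measure the loss of the protein. Of 4 epithelial markers, *KRT8* and *KRT18* were high in A549, HCC366 and NCI-H1650, with *KRT8* between 1108 and 3197 CPM, against 46.5 to 48.3 CPM in NCI-H196, leaving out its shallowest library. *EPCAM* and *CDH1* were high in NCI-H1650 alone (at least 103 and 770 CPM), and reached at most 0.509 and 50.2 CPM in A549 and 2.01 and 10.6 CPM in HCC366. The neuroendocrine markers *NEUROD1* and *INSM1* were at 0 in those 3 NCI-H196 libraries and *SYP* reached at most 2.03 CPM. The lung adenocarcinoma marker *NKX2-1* reached at most 0.647 CPM in any line. In HCC366 the squamous marker *KRT5* reached at most 1.94 CPM, *SOX2* was at 0 and *TP63* reached at most 4.37 CPM. *TP63* was highest in NCI-H196, at 15.7 to 32.2 CPM. The neuroendocrine marker *CHGA* was highest in NCI-H1650, at 12.9 to 23.4 CPM, and reached at most 2.03 CPM in NCI-H196.

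*GADD45A* lies on the plus strand of chromosome 1 (GRCh37, 68150884 to 68154017) and *GADD45B* on the plus strand of chromosome 19 (2476120 to 2478257). *GADD45G* lies on the plus strand of chromosome 9 (92219927 to 92221470). The canonical transcript of each paralog has 4 exons. The exons of *GADD45G* have a GC content of 64.0%, higher than 96.6% of annotated genes, against 59.6% for *GADD45B* and 50.7% for *GADD45A*. *GADD45GIP1* is a gene of 2 exons on the minus strand of chromosome 19 (13063933 to 13068037). *MAP3K4*, with 27 exons on the plus strand of chromosome 6 (161412759 to 161538417), overlaps its antisense transcript *MAP3K4-AS1* by 357 exonic bases. Whether reads were counted by strand is not given in the sources used here, so reads from exons that overlap a gene on the other strand may have been left out or shared.

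The RefSeq promoter table (GRCh38.p14) held 4 of the 5 genes, all but *GADD45A*. Windows from 250 bases before to 50 bases after the start were searched on both strands for TGATGNAA (the core of the C/EBP-ATF response element), TGACGTCA (the cAMP response element), CCAAT (the NF-Y box), ATTTGCAT (the octamer) and GAAANNGAA (the core of the interferon-stimulated response element). The upstream 250 bases of *GADD45B* and *GADD45G* are shown because only these 2 windows held a match. Capitals mark the matches. The *GADD45B* sequence is chr19:2475877-2476126 and the *GADD45G* sequence is chr9:89604762-89605011, both on the plus strand.
GADD45B: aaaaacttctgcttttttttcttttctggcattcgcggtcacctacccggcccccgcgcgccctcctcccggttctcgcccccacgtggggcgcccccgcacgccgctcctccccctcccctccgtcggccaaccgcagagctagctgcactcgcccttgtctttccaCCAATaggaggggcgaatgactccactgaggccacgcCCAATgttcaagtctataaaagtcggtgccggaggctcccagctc
GADD45G: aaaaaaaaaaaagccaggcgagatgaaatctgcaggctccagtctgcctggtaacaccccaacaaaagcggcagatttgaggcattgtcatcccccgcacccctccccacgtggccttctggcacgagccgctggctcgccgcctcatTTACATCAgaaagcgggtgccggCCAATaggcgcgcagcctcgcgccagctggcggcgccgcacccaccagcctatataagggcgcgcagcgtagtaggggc
*GADD45B* held CCAAT at positions −82 to −78 and −45 to −41 from the start. *GADD45G* held CCAAT at −79 to −75 and TGATGNAA on the minus strand at −102 to −95. Of 35116 promoter windows of this length, 34.6% held CCAAT, 3.62% TGATGNAA, 8.11% GAAANNGAA, 1.85% TGACGTCA and 1.77% ATTTGCAT. Neither *GADD45GIP1* nor *MAP3K4* held any of the 5 in its window.

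Before *ADAR* KO, the paralogs differed in level within and between lines. Levels between genes were compared as CPM per kilobase of exon (RPKM), scaled over all 20 libraries. In *GFP* cells, *GADD45A* stood at 53.8 and 43.8 RPKM in HCC366 and at 63.5 and 53.1 RPKM in NCI-H1650 (sg1 and sg2). It stood at 65.5 and 27.2 RPKM in NCI-H196, where the lower value rests on 5 reads, and at 15.5 and 13.9 RPKM in A549 with vehicle. A549 was thus the line with the lowest *GADD45A*, with no overlap with any other line. A549 had received vehicle and the other lines nothing, and its time after transduction is not given. Line and culture therefore cannot be told apart in this or any other baseline comparison with A549. On the log2 scale of the TMM-scaled counts, *GADD45A* was higher than in A549 by 1.78 (standard error, SE, 0.15, adjusted p = 1.64e-24) in HCC366, by 2.03 (SE 0.14, adjusted p = 3.49e-34) in NCI-H1650 and by 2.16 (SE 0.15, adjusted p = 2.6e-33) in NCI-H196. With NCI-H196 GFP sg1 left out, so that only the shallow library stood for that line, the last difference was 0.97 with an adjusted p of 0.445. The 3 ADAR1-dependent lines were closer to each other, with differences of −0.24 for HCC366 against NCI-H1650, −0.37 for HCC366 against NCI-H196 and −0.13 for NCI-H1650 against NCI-H196. Of these, HCC366 against NCI-H196 passed the threshold (adjusted p = 0.0325), but its call and direction did not hold under every alternative. With DESeq2 it was −0.07 (adjusted p = 0.922), with the replicate block −0.22 (adjusted p = 0.279), and without NCI-H196 GFP sg1 it turned to 0.80 (adjusted p = 0.506). The mean level was 48.8 RPKM (SD 7.09) in HCC366 and 46.3 RPKM (SD 27.1) in NCI-H196 (n = 2 each), which has the opposite sign to the fitted difference.

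*GADD45B* followed another order. Its levels in *GFP* cells were 26.4 and 22.9 RPKM in HCC366, 13.9 and 14.1 RPKM in NCI-H1650, 25.0 and 34.2 RPKM in NCI-H196 and 21.3 and 20.9 RPKM in A549. NCI-H1650 was lowest, with both libraries under every other *GFP* library. The log2 difference of NCI-H1650 was −0.56 (SE 0.15, adjusted p = 0.000569) from A549 and −0.87 (SE 0.17, adjusted p = 3.23e-06) from NCI-H196, and HCC366 was above NCI-H1650 by 0.84 (SE 0.17, adjusted p = 9.52e-06). The first of these had an adjusted p of 0.301 with DESeq2 and the second one of 0.0946. The remaining 3 pairs of lines differed by −0.03 to 0.31 and did not pass.

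*GADD45G* was barely detected in *GFP* cells. There were no reads in either A549 library, 0 and 1 in HCC366, 2 and 2 in NCI-H1650, and 11 and 0 in NCI-H196. At 3 reads, the limit that a count of 0 allows was 0.396 and 0.199 CPM in the A549 vehicle libraries, and 43.98 CPM in the shallow NCI-H196 library, where *GADD45G* at the level of the deeper one was not detectable. No fold between lines was taken for *GADD45G*.

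Among the interactors, *GADD45GIP1* was highest in A549, at 27.5 and 27.0 RPKM, against 17.3 and 14.7 RPKM in NCI-H1650, 13.2 and 0 RPKM in NCI-H196 and 10.1 and 6.36 RPKM in HCC366. Against A549 the log2 differences were −0.74 (SE 0.16) in NCI-H1650, −1.04 (SE 0.19) in NCI-H196 and −1.78 (SE 0.21) in HCC366, with adjusted p of 1.52e-05, 1.83e-07 and 4.45e-14. With DESeq2 the HCC366 difference alone passed (adjusted p = 0.0152, against 0.377 in NCI-H1650 and 0.0792 in NCI-H196). *MAP3K4*, the kinase that GADD45 proteins bind, lay between 2.78 and 7.32 RPKM in the 8 untreated or vehicle *GFP* libraries. It was higher in NCI-H196 than in A549 by 0.50 (SE 0.16, adjusted p = 0.00353) and than in HCC366 by 0.64 (SE 0.19), and these were 0.33 and 0.43 with DESeq2 (adjusted p = 0.581 and 0.541). Both differences rest on NCI-H196 GFP sg1 alone, at 7.32 RPKM. GFP sg2, with 2 reads, stood at 2.78 RPKM, under both A549 libraries (5.08 and 5.29 RPKM) and both HCC366 libraries (3.61 and 4.91 RPKM). These line differences are read against a background in which most genes differed. Against A549, 2 of 4 members tested passed in HCC366 (64.9% of all genes tested), 3 of 4 in NCI-H1650 (68.3%) and 3 of 4 in NCI-H196 (70.5%). Between the ADAR1-dependent lines, 3 of 4 passed for HCC366 against NCI-H1650 (56.7%), 3 of 4 for HCC366 against NCI-H196 (57.3%) and 1 of 4 for NCI-H1650 against NCI-H196 (61.7%).

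**Figure D1:**
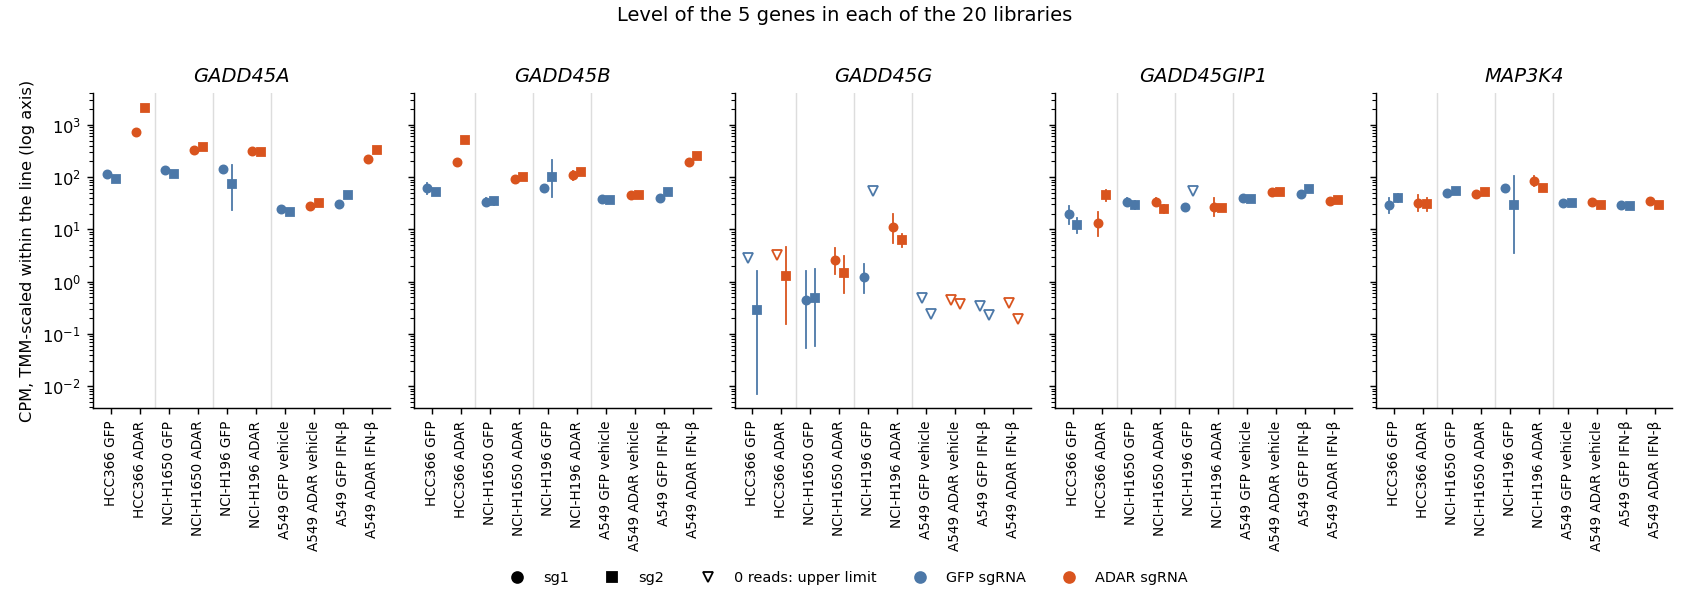
Level of each gene in each library as CPM, scaled by TMM within the line, on a log axis. Circles are sg1 and squares sg2, bars are exact 95% Poisson intervals of the count, and open triangles mark the upper limit where no read was counted. *GADD45A* in HCC366 ADAR sg2, at 2091 CPM, is the highest value, and the 8 A549 libraries show no *GADD45G* read.

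After *ADAR* KO, *GADD45A* and *GADD45B* rose in each of the ADAR1-dependent lines, and the interactors did not pass the test. In HCC366, *GADD45A* went from 112 and 90.2 CPM in *GFP* cells to 719 and 2091 CPM in *ADAR* KO cells. *GADD45B* went from 61.2 and 52.4 to 197 and 523 CPM. For both genes the *ADAR* libraries lay above the *GFP* libraries, and ADAR sg2 lay well above ADAR sg1. The log2 fold changes were 3.80 (SE 0.52, adjusted p = 0.0272) and 2.67 (SE 0.48, adjusted p = 0.0394). With GFP sg1 or GFP sg2 left out, *GADD45B* kept a log2 fold change of 2.73 and 2.55 but lost its call (adjusted p = 0.199 and 0.425). The 2 members were 2 of 4 tested, where 1.25% of 11135 genes passed.

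In NCI-H1650, *GADD45A* went from 137 and 117 CPM to 336 and 381 CPM, and *GADD45B* from 33.3 and 34.4 CPM to 90.3 and 102 CPM. The 2 genes rose by almost the same factor, 2.82-fold and 2.84-fold (log2 fold change 1.5, SE 0.11, and 1.51, SE 0.13), although *GADD45A* started at a level 3.77 to 4.56 times that of *GADD45B* in RPKM. They were the 2 of 4 members tested that passed, against 8.60% of 14530 genes, and they passed under every alternative processing tried.

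In NCI-H196, *GADD45A* stood at 145 and 73.3 CPM in *GFP* cells and 317 and 304 CPM in *ADAR* KO cells. *GADD45B* stood at 61.3 and 103 CPM in *GFP* cells, where the second value had an exact 95% Poisson interval of 41.3 to 211 CPM, and at 109 and 127 CPM in *ADAR* KO cells. The groups did not overlap, but for *GADD45B* the shallow *GFP* library reached nearly the lower *ADAR* value. The log2 fold changes were 1.11 (SE 0.11) and 0.99 (SE 0.12), and both passed, against 17.8% of 14094 genes. *GADD45G*, below, is not counted with them. Both calls were lost with all 20 libraries in 1 fit (adjusted p = 0.113 for *GADD45A* and 0.287 for *GADD45B*), and DESeq2 gave adjusted p of 0.231 and 1. With the replicate block, *GADD45A* kept its call, and the log2 fold change of *GADD45B* was 0.73 (adjusted p = 0.282). Without GFP sg1, the value for *GADD45B* was 0.27 (adjusted p = 0.893), and without ADAR sg2 by 0.73 (adjusted p = 0.734).

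*GADD45G*, the paralog with the lowest level, had more than a few reads only in NCI-H196 and NCI-H1650. Most of those reads came from *ADAR* libraries, so singling out these lines favours a higher level in *ADAR* KO cells. In NCI-H196 *GADD45G* was read 11 and 0 times in *GFP* cells and 11 and 50 times in *ADAR* KO cells, or 1.23 and 0 CPM against 11.2 and 6.27 CPM. The log2 fold change was 2.47 (SE 0.46, adjusted p = 2.76e-06). It passed the filter on low counts through its *ADAR* libraries, so that it could enter the test here only by being high there, and its p supports no direction. It lost the call with the replicate block (log2 fold change 3.17, adjusted p = 0.0569), with all 20 libraries in 1 fit (2.61, adjusted p = 0.0684) and without ADAR sg2 (3.16, adjusted p = 0.8). In NCI-H1650 it was read 2 and 2 times in *GFP* cells and 14 and 7 times in *ADAR* KO cells, or 0.441 and 0.478 CPM against 2.60 and 1.49 CPM. It did not pass the filter there. The ratio of the summed, scaled counts was 4.55 with a 95% counting interval of 1.53 to 18.2, and without the filter on low counts the log2 fold change was 2.13 (adjusted p = 0.0455). The NCI-H1650 values, too, support no direction, as the line was singled out by reads of its *ADAR* libraries. In HCC366 there were 1 read in *GFP* and 2 in *ADAR* KO cells, too few for a fold.

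Over the 3 lines together, with the line as a covariate, *GADD45A* rose by 2.15 (SE 0.35, adjusted p = 0.00147) and *GADD45B* by 1.70 (SE 0.26, adjusted p = 0.000937) on the log2 scale. *GADD45GIP1* (0.21, SE 0.25) and *MAP3K4* (−0.03, SE 0.15) did not pass, and 5.30% of 16538 genes did. *GADD45G* entered this fit, too, through its *ADAR* libraries and is not counted with the others. Its log2 fold change was 2.35 (SE 0.42), with an adjusted p of 0.0028 that rose to 0.0667 without NCI-H196 GFP sg1 (2.03). The size of the *GADD45A* change differed between lines. It was larger in HCC366 than in NCI-H1650 by 2.27 (SE 0.46, adjusted p = 0.0215) and than in NCI-H196 by 2.54 (SE 0.49, adjusted p = 0.0148), and it was the only 1 of 4 members tested to pass in either comparison (0.659% and 0.792% of genes). Both differences kept their calls without either HCC366 *ADAR* library but changed in size. Without ADAR sg2 they were 1.32 and 1.70, and without ADAR sg1 they were 2.83 and 3.21. The corresponding differences for *GADD45B* were 1.14 (SE 0.44, adjusted p = 0.236) and 1.78 (SE 0.47, adjusted p = 0.0747). Without HCC366 GFP sg2 the *GADD45A* differences were 2.10 and 2.37 (adjusted p = 0.265 and 0.15). The first also lost its call without NCI-H1650 GFP sg1, ADAR sg1 or ADAR sg2 (2.14, 2.17 and 2.34, adjusted p = 0.0537, 0.0781 and 0.0528). The second lost it without NCI-H196 GFP sg1 (1.51, adjusted p = 0.863), ADAR sg1 (2.47, adjusted p = 0.0834) or ADAR sg2 (2.55, adjusted p = 0.116). Between NCI-H1650 and NCI-H196 the *GADD45A* effects differed by 0.27 with a 95% interval of −0.67 to 1.21. In that comparison edgeR called none of the 5 members and 0% of genes, with 544 of 16538 genes at an unadjusted p under 0.05, and DESeq2 called 0.

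**Figure D2:**
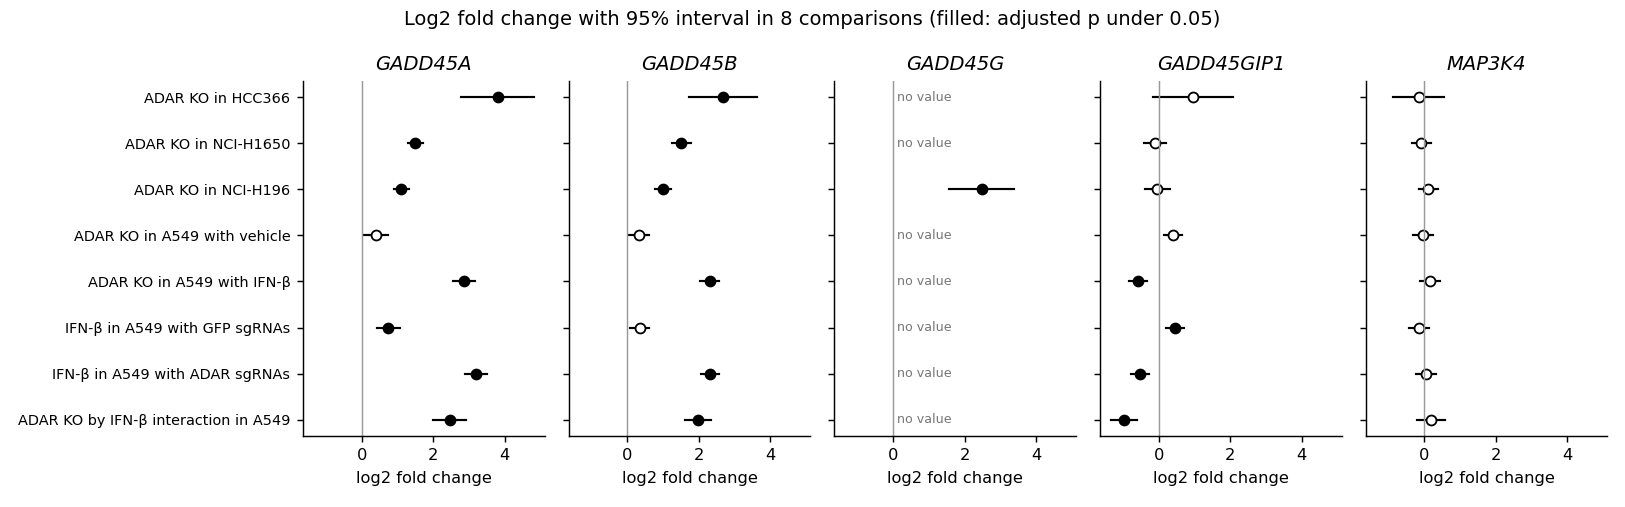
Log2 fold change of each gene (points) with its 95% interval (lines) in 8 comparisons from edgeR. Filled points have an adjusted p under 0.05, and "no value" marks *GADD45G* where it did not pass the filter. *GADD45A* and *GADD45B* lie right of 0 throughout, *GADD45GIP1* lies on both sides, and every *MAP3K4* interval includes 0.

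In A549 the effect of *ADAR* KO on the paralogs depended on IFN-β. With vehicle, *GADD45A* stood at 24.7 and 21.4 CPM in *GFP* cells and 28.4 and 31.6 CPM in *ADAR* KO cells, and *GADD45B* at 37.6 and 35.8 CPM and at 45.1 and 46.5 CPM. The *ADAR* libraries lay above the *GFP* libraries for both, but the share of all genes with such a separation was not counted. The log2 fold changes of 0.40 (SE 0.18, 95% interval 0.05 to 0.74) and 0.32 (SE 0.14, 95% interval 0.05 to 0.60) did not pass edgeR's quasi-likelihood test (adjusted p = 0.998 for each). With edgeR, 0 of 4 members tested and 0.123% of 15449 genes passed. At an unadjusted p under 0.05 there were 642 genes, among them *GADD45A*, *GADD45B* and *GADD45GIP1*. This is fewer genes than a threshold of 0.05 gives where no gene changes, so it is not read as a change in these members. DESeq2 called 11 genes, none of them a member. The mean effect in the 3 ADAR1-dependent lines was larger than that in A549 with vehicle by 1.76 (SE 0.34, adjusted p = 0.00761) for *GADD45A* and by 1.37 (SE 0.30, adjusted p = 0.0169) for *GADD45B*, 2 of 4 members tested against 0.953% of genes. The *GADD45A* difference lost its call without A549 ADAR sg1 (1.67, adjusted p = 0.0869). The *GADD45B* difference lost it without any 1 of the 4 A549 libraries, without NCI-H196 GFP sg1 and without NCI-H196 ADAR sg2, at 1.23 to 1.40 (adjusted p = 0.066 to 0.192).

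With IFN-β, *GADD45A* stood at 30.7 and 45.0 CPM in *GFP* cells and 223 and 326 CPM in *ADAR* KO cells. *GADD45B* stood at 39.7 and 52.2 CPM in *GFP* cells and 194 and 258 CPM in *ADAR* KO cells. The groups lay far apart, at log2 fold changes of 2.85 (SE 0.16, adjusted p = 1.99e-14) and 2.30 (SE 0.13, adjusted p = 5.63e-14). With *GADD45GIP1*, below, 3 of 4 members tested passed, against 17% of genes. In *GFP* cells *GADD45A* rose by 0.74 (SE 0.17, adjusted p = 0.00353) and *GADD45B* was at 0.34 (SE 0.14, adjusted p = 0.199), and 2 of 4 members tested passed, against 5.70% of genes. The *GADD45A* call was lost with DESeq2 (adjusted p = 0.201), with all 20 libraries in 1 fit (adjusted p = 0.334), without the GFP sg2 vehicle library (adjusted p = 0.149) and without the GFP sg2 IFN-β library (0.43, adjusted p = 0.223). Without the GFP sg1 IFN-β library, *GADD45B* passed at 0.52 (adjusted p = 0.017). In *ADAR* KO cells IFN-β raised *GADD45A* by 3.19 (SE 0.16, adjusted p = 2.87e-16) and *GADD45B* by 2.31 (SE 0.14, adjusted p = 1.08e-14), and 3 of 4 members tested passed, against 24.5% of genes. The interaction, the *ADAR* KO effect with IFN-β minus that with vehicle, was 2.45 (SE 0.23, adjusted p = 1.9e-08) for *GADD45A* and 1.97 (SE 0.19, adjusted p = 2.92e-08) for *GADD45B*. Together with *GADD45GIP1*, 3 of 4 members tested passed the interaction, against 5.05% of genes, and the 2 paralogs passed it under every alternative processing tried. *GADD45G* had no read in any of the 8 A549 libraries, which at 3 reads allows at most 0.156 to 0.396 CPM per library, so it was not detected even where *GADD45A* was raised 7.21-fold by *ADAR* KO.

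*GADD45GIP1*, the mitochondrial ribosome subunit that binds GADD45 proteins, took another course in A549. With vehicle it stood at 40.1 and 38.2 CPM in *GFP* cells and 50.9 and 52.3 CPM in *ADAR* KO cells. With IFN-β it stood at 48.5 and 58.5 CPM in *GFP* cells and 35.4 and 36.4 CPM in *ADAR* KO cells. The *ADAR* libraries were the higher ones with vehicle and the lower ones with IFN-β, without overlap either time. The share of all genes with such separations was not counted. The difference with vehicle did not pass and is not read as a change. The *ADAR* KO effect was 0.40 (SE 0.13, adjusted p = 0.816) with vehicle and −0.58 (SE 0.13, adjusted p = 0.00177) with IFN-β. IFN-β raised it by 0.46 (SE 0.13, adjusted p = 0.0271) in *GFP* cells and lowered it by a log2 fold change of −0.52 (SE 0.13, adjusted p = 0.00337) in *ADAR* KO cells. The interaction was −0.98 (SE 0.18, adjusted p = 0.000891).

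The interaction of *GADD45GIP1* stayed between −1.1 and −0.83 with each A549 library left out in turn. With GC and length offsets it was −0.77 (adjusted p = 0.000921), and with the spread estimated over all 20 libraries it was −1.02 and did not pass (adjusted p = 0.148). The rise with IFN-β in *GFP* cells was less firm. It lost its call with the 20-library fit (0.43, adjusted p = 0.552) and without the GFP sg1 vehicle, GFP sg2 vehicle or GFP sg2 IFN-β library (0.47, 0.42 and 0.31, adjusted p = 0.151, 0.305 and 0.236). In the ADAR1-dependent lines *GADD45GIP1* did not pass, at −0.10 (SE 0.16) in NCI-H1650, −0.04 (SE 0.18) in NCI-H196 and 0.96 (SE 0.57) in HCC366. The HCC366 value hung on 1 library. *GADD45GIP1* stood at 19.4 and 12.03 CPM in *GFP* cells and 13.1 and 44.6 CPM in *ADAR* KO cells, and without ADAR sg2 the log2 fold change was −0.11 (adjusted p = 0.930). Without ADAR sg1 it was 1.61 (adjusted p = 1.07e-06), and with GC and length offsets 0.54 (adjusted p = 0.354).

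**Figure D3:**
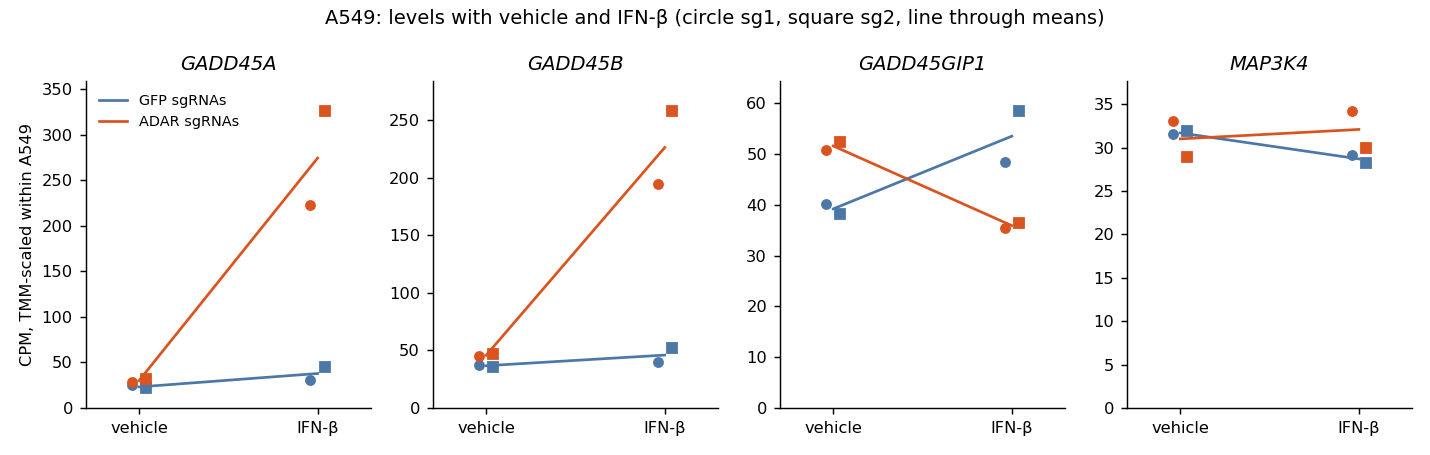
CPM of 4 genes in A549 cells with vehicle and with IFN-β, on linear axes that start at 0, for *GFP* (blue) and *ADAR* (orange) sgRNAs. Points are libraries (circle sg1, square sg2) and lines join the means. *GADD45A* and *GADD45B* climb only slightly in *GFP* cells. In *ADAR* KO cells they reach 223 CPM or more and 194 CPM or more. The *GADD45GIP1* lines cross, but its *ADAR* KO effect with vehicle did not pass the test.

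*MAP3K4* did not pass in any of the 13 comparisons of *ADAR* KO or IFN-β, with log2 fold changes from −0.46 to 0.19 and a smallest adjusted p of 0.49. Its 95% intervals for *ADAR* KO were −0.35 to 0.18 in NCI-H1650, −0.16 to 0.37 in NCI-H196, −0.87 to 0.56 in HCC366 and −0.12 to 0.43 in A549 with IFN-β. In A549 it ranged only from 28.3 to 34.3 CPM over the 8 libraries, while *GADD45A* ranged from 21.4 to 326 CPM.

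The 2 induced paralogs did not keep one ratio. The level of *GADD45A* relative to *GADD45B*, in RPKM, was 0.729 and 0.666 in A549 *GFP* cells with vehicle, 0.699 and 0.756 in *ADAR* KO cells with vehicle, 0.859 and 0.956 in *GFP* cells with IFN-β and 1.27 and 1.40 in *ADAR* KO cells with IFN-β. In HCC366 it was 2.04 and 1.91 in *GFP* cells and 4.06 and 4.44 in *ADAR* KO cells. In NCI-H1650 it overlapped between the groups, at 4.56 and 3.77 against 4.14 and 4.13. In NCI-H196 it was 2.62 and 0.793 in *GFP* cells, the latter from 5 and 7 reads, and 3.24 and 2.66 in *ADAR* KO cells. With the length of the longest transcript in place of all exons, every ratio was higher, and the 8 A549 ratios ran from 0.890 to 1.88, so which paralog was higher in A549 *GFP* cells with IFN-β depends on the length used (1.15 and 1.28 with the longest transcript). These ratios were not tested.

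**Figure D4:**
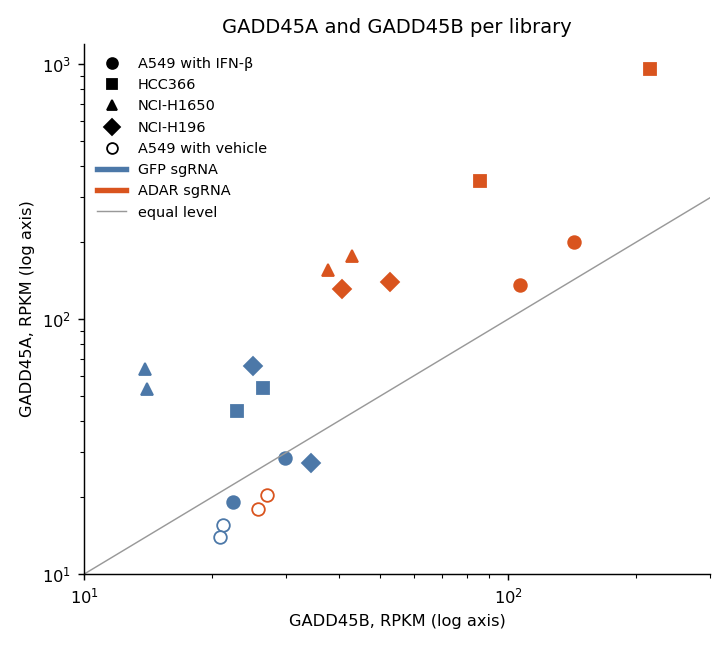
RPKM of *GADD45A* (vertical) against *GADD45B* (horizontal) in each library, on log axes, with a line of equal level. Symbols mark the line and colours the sgRNA target. The vehicle-treated A549 libraries lie under the line and the IFN-β-treated *ADAR* KO libraries above it, while NCI-H1650 shifts along a steady ratio of 3.77 to 4.56.

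The genes whose pattern was most like that of each paralog were taken as those with the highest Pearson correlation of log2 CPM, centred on the mean of each line, over the 20 libraries. The libraries share lines and sgRNAs, so the correlations are descriptions. For *GADD45A* they were *MAFF*, *CSRNP1*, *JUN*, *PPP1R15A* and *TUFT1*, with r from 0.976 to 0.993. *GADD45B* ranked 28 of 19522 genes (r = 0.956). Without the shallow NCI-H196 library, *GADD45B* ranked 3 (r = 0.99) and the list kept 4 of its 5 genes. For *GADD45B* the 5 genes over 20 libraries included *DDIT3*, *YY1AP1*, *KDM6B* and *NOCT*, and none of the 5 stayed without that library, when they were *JUN*, *GADD45A*, *MAFF*, *CSRNP1* and *FOS* (r from 0.98 to 0.992). For *GADD45G*, a gene of few reads, the list was *RELN*, *EVC*, *CCL3L3*, *PBX2P1* and *SLC7A5P1*, of which only *CCL3L3* stayed without the shallow library. *CCL3L3* has near-identical gene copies and *PBX2P1* and *SLC7A5P1* are pseudogenes, so their counts are uncertain. *GADD45GIP1* and *MAP3K4* had r of 0.320 and 0.163 with *GADD45A*, and 0.166 and −0.294 without the shallow library.

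Known regulators of GADD45 transcription are read against the share of all genes called, which was 5.30% across the 3 lines (NCI-H196 17.8%, NCI-H1650 8.60%, HCC366 1.25%) and, in A549, 0.123% with vehicle and 17% with IFN-β. Of 18 such genes tested across the 3 lines, 4 rose and none fell. Those that rose were *EGR1* (3.12), *CEBPB* (1.35), *MYC* (1.14) and *NFKB1* (0.93). The median log2 fold change of the list was 0.20 against −0.01 for all genes. Activators and repressors of GADD45 genes were not separated in this list. Its counts and medians, here and below, therefore say nothing about the direction of GADD45 transcription. In HCC366 *EGR1* alone rose (5.59) of 17 tested, and 6 rose in each of NCI-H1650 (of 17) and NCI-H196 (of 16). In A549 with vehicle *EGR1* was the 1 of 17 that rose (2.85), and with IFN-β 9 of 17 rose and none fell, with *EGR1* at 8.34 and a median of 0.37 against −0.01. *ATF4*, which is largely controlled at translation, was at 0.50 across the 3 lines and did not pass (adjusted p = 0.0695), and it rose in NCI-H196 (0.36). Of 10 p53 targets, 1 rose across the 3 lines (*BTG2*, 1.02) and none fell, with a median of −0.05 against −0.01. None of the p53 targets passed in HCC366 (9 tested), NCI-H1650 (10) or A549 with vehicle (10), and *BTG2*, *CDKN1A* and *XPC* rose in NCI-H196. In A549 with IFN-β, *BTG2* (0.96), *RRM2B* (0.48) and *DDB2* (0.39) rose. *MDM2*, itself a p53 target, was at −0.01 across the 3 lines and at 0.16 in A549 with IFN-β and did not pass.

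Some other genes named for growth arrest and DNA damage also rose, read against 5.30% of all genes called across the 3 lines. Across the 3 lines *PPP1R15A* (also called GADD34; 2.10), *DDIT3* (GADD153, or CHOP; 1.66) and *DDIT4* (1.08) rose and *DDIT4L* (0.29) did not pass, with a median of 1.37 against −0.01. By line, *DDIT4* did not pass in HCC366 (0.91, adjusted p = 0.351 with edgeR). *DDIT4L* did not pass in NCI-H1650 (1.41) or in NCI-H196 (−0.65), where its sign was opposite. *PPP1R15A* and *DDIT3* are also among the genes the study plotted on these libraries. All 3 measured genes of the list rose in A549 *ADAR* KO cells with IFN-β (*DDIT3* 3.13, *PPP1R15A* 2.99, *DDIT4* 0.72), against 17% of genes. None of them passed with vehicle, where 0.123% of genes did.

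Of 14 genes of the p38 and JNK cascade tested across the 3 lines, 1 rose, *MAP2K3* (1.1), a kinase that activates p38. None fell, and the median was 0.12 against −0.01. With 5.30% of all genes called there, this count is near the background and is no result about the cascade. *MAP2K3* rose together with *TRAF4*, an adaptor that binds MAP3K4, in NCI-H1650 (0.67 and 0.34) and in A549 with IFN-β (1.23 and 0.70), and together with *MAPK10* in NCI-H196 (0.56 and 1.47). None of 13 passed in HCC366 and none of 14 in A549 with vehicle. Among 13 GADD45-binding partners tested across the 3 lines, *ING1* rose (0.72) and *CDK1* fell (−0.84), with a median of −0.17 against −0.01. In NCI-H1650 *CDK1*, *NPM1* and *PCNA* fell, and in NCI-H196 *CDK1* and *NPM1* fell while *CDKN1A*, *ING1* and *TET2* rose. In A549 with IFN-β, *TET2* rose (0.76) and *PCNA* fell (−0.48). Calls of partners are read against the same shares of all genes and are no result about the partners as a set. *CDKN1A*, which encodes p21, was at 0.84 across the lines and did not pass. None of 12 partners passed in HCC366 and none of 13 in A549 with vehicle.

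Among the neighbours of GADD45GIP1 at the exit tunnel of the mitochondrial ribosome and the insertase gene *OXA1L*, none of 8 genes passed in any of the 3 lines, across them or in A549 with vehicle. Their median across the lines was −0.20 against −0.01. In A549 with IFN-β, 1 of 8 fell after *ADAR* KO, *MRPL23* (−0.47), and the median was −0.08 against −0.01. None of the 8 passed the interaction in which *GADD45GIP1* had passed, and their median there was −0.20 against 0.00.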

How the data were processed

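Total RNA depleted of ribosomal RNA was sequenced with a directional kit. The authors aligned reads to hg19 (GRCh37) with STAR and counted them per Ensembl gene with HTSeq, and the deposited values were raw, unnormalised counts for each of 20 libraries. Tool versions, the annotation release and the strand setting of the count are not given in the sources used here. The 5 genes and all gene lists were chosen with earlier results of these data known. Genes with low counts were removed by the edgeR filter within each fit, and libraries were scaled by TMM. Tests were edgeR quasi-likelihood F-tests (edgeR 4.0.16, R 4.3.3) with Benjamini-Hochberg adjustment over all genes tested and a threshold of 0.05. Each line was fitted alone (A549 as 4 groups). The 3 ADAR1-dependent lines were fitted with line as a covariate, and again by condition for differences between lines. A549 with vehicle was compared with them in a fit of all 20 libraries. Baseline *GFP* levels, untreated or with vehicle in A549, were compared in a fit of 8 libraries. SE is the log2 fold change over the square root of F. No fold was given where a group held 3 counts or fewer. Intervals of counts are exact Poisson, at 95%, and cover counting error only. Alternatives were DESeq2 1.42.0, its size factors, no filter, each library left out, the replicate block, offsets for GC content and exon length from splines with 4 degrees of freedom, and 1 fit of all 20 libraries. Fits were also run on simulated data, but the outcome is not given here and no result above rests on it. The text named all 5 genes, the genes of the lists that passed, and the 5 genes most correlated with each paralog, and *MDM2*, *ATF4* and *DDIT4L* as members of the lists that did not pass. Results for a few other genes are not reported here.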

Additional observations from a re-analysis of the deposited data

Results flagged for a closer look

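The effect of *ADAR* KO differed between settings for 3 of the genes by a test of the difference itself, all given here as log2 values. In A549 the effect with IFN-β minus that with vehicle was 2.45 for *GADD45A*, 1.97 for *GADD45B* and −0.98 for *GADD45GIP1*. Between lines, the *GADD45A* effect in HCC366 exceeded that in NCI-H1650 by 2.27 and that in NCI-H196 by 2.54. The mean effect in the 3 ADAR1-dependent lines exceeded that in A549 with vehicle by 1.76 for *GADD45A* and 1.37 for *GADD45B*. These lines were sampled 5 days after transduction. A549 was sampled after 24 h of vehicle, at a time after transduction that is not given. Line and sampling therefore cannot be told apart in the last comparison, nor in the baseline comparisons with A549. With 2 libraries a group, no library could be tested as standing apart from its group.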

How the results depend on the processing

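Of 79 results, 40 passed the test. Over the alternatives they gave 454 values, of which 388 kept direction and call, 65 kept direction without the call and 1 changed direction. The 39 that did not pass gave 473 values, of which 15 passed and 40 changed direction. The cause of these changes was not tested.

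With DESeq2, members called numbered 0 for *ADAR* KO in NCI-H196, 1 for IFN-β in *GFP* cells, 1 for the baseline of NCI-H1650 and of NCI-H196 against A549 and of HCC366 against NCI-H1650, and 0 for HCC366 and NCI-H1650 against NCI-H196. *MAP3K4* turned to 0.049 for the 3 lines minus A549, and for baselines *GADD45B* to 0.028 (HCC366 minus NCI-H196), *GADD45A* to 0.14 and *MAP3K4* to 0.044 (NCI-H1650 minus NCI-H196). With DESeq2 size factors, *MAP3K4* turned to 0.013 across the lines and 0.024 for the 3 lines minus A549, baseline *GADD45B* to 0.12 and *GADD45A* to 0.023 in the same pairs, and 2 members were called for NCI-H1650 minus NCI-H196. GC and length offsets turned *GADD45GIP1* across the lines to −0.029. For HCC366 minus NCI-H196, 2 members were called with those offsets, with no filter and in the 20-library fit. That fit called 0 members for NCI-H196 and 0 for IFN-β in *GFP* cells and turned *MAP3K4* under IFN-β in *ADAR* KO cells to −0.013.

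Between *GFP* and *ADAR* cells, a replicate number is shared by sgRNAs of different targets. In A549, however, the vehicle and IFN-β libraries of a target with the same number carried the same sgRNA. The reported IFN-β comparisons did not use that pairing. The correlation of same-numbered deviations was −0.253 in HCC366 and −0.0784 to 0.0580 elsewhere, which cannot show whether samples were handled in pairs. With the replicate block, NCI-H196 called 1 member, *GADD45GIP1* there turned to 0.13, and *MAP3K4* to 0.021 across the lines and 0.088 for the 3 lines minus A549. With block and GC offsets these were 1 member, 0.042 and, for the 3 lines minus A549, 0.046, and 2 members were called for HCC366 minus NCI-H196. The block also ended the baseline call of *GADD45A* in HCC366 minus NCI-H196 (−0.22, adjusted p = 0.279) and, beside *GADD45B* and *GADD45G* in NCI-H196, no other call of a member. It called 115 genes in NCI-H196 (2513 as reported), 300 in HCC366 (139), 362 across the lines (876), and 171, 77 and 109 for the differences from HCC366 and A549 (109, 131 and 186). A block with crossed numbers in HCC366, added after seeing the data, called 960 genes against 139.

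With 1 library left out, values ran as follows. In HCC366 *GADD45GIP1* ran from −0.11 to 1.61, *MAP3K4* from −0.37 to 0.091 and members called from 1 to 3. In NCI-H1650 *GADD45GIP1* lay between −0.36 and 0.087. In NCI-H196 it lay between −0.064 and 0.049, with 1 to 3 members called. *MAP3K4* ran from −0.13 to 0.060 in A549 with vehicle and from −0.056 to 0.15 under IFN-β in *ADAR* KO cells, and IFN-β in *GFP* cells called 0 to 3 members. Across the lines *GADD45GIP1* ran from −0.099 to 0.34 and *MAP3K4* from −0.096 to 0.036. For HCC366 minus NCI-H1650 *GADD45GIP1* ran from −0.064 to 1.67, *MAP3K4* from −0.33 to 0.14 and calls from 0 to 3. For HCC366 minus NCI-H196 *GADD45GIP1* ran from −0.14 to 1.59 and calls from 0 to 3. For NCI-H1650 minus NCI-H196 *GADD45A* ran from −0.75 to 0.45 and *GADD45GIP1* from −0.38 to 0.082. For the 3 lines minus A549 *GADD45GIP1* ran from −0.50 to 0.033, *MAP3K4* from −0.094 to 0.083 and calls from 0 to 2. At baseline, *MAP3K4* in HCC366 minus A549 ran from −0.46 to 0.0047 and calls in NCI-H196 minus A549 from 0 to 3. In HCC366 minus NCI-H196, *GADD45A* ran from −0.46 to 0.80, *GADD45B* from −0.51 to 0.12 and calls from 0 to 3. In NCI-H1650 minus NCI-H196, *GADD45A* ran from −0.24 to 1.04 and calls from 0 to 1.

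Counts of genes called, over all alternatives, ran from 9 to 6408 in HCC366 (139 as reported), 159 to 1365 in NCI-H1650 (1250), 10 to 3041 in NCI-H196 (2513), 3 to 30 in A549 with vehicle (19), 689 to 3581 with IFN-β (2622), 517 to 1245 for IFN-β in *GFP* cells (880), 1774 to 4367 in *ADAR* KO cells (3788), 164 to 1663 for the interaction (780) and 328 to 3148 across the lines (876). For differences between lines they ran from 1 to 4802 (109), 1 to 4271 (131), 0 to 18 (0) and 24 to 3032 (186), and for baselines from 1310 to 13599. The shallow NCI-H196 library limits every value of that line.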
